A study of Mus musculus with 4 samples.

Results

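Wnt and R-spondin signalling sets up the zones of the liver lobule, and the data here are the open chromatin regions at 10 genes of that pathway: Rspo3, Wnt2, Wnt9b, Lgr4, Lgr5, Axin2, Tbx3, Znrf3, Rnf43 and Tcf7l2. Peaks were compared between 2 ATAC libraries of mouse liver, 1 wild type and 1 Mertk knockout, both after bile duct ligation, an operation that blocks bile flow and leads to cholestasis and scarring. Mertk encodes a receptor tyrosine kinase with which macrophages engulf dying cells. The genes were chosen by name, and a peak belonged to a gene if the authors' annotation assigned it there as a promoter or distal peak. All 10 had at least 1 peak, out of 25458 genes with a promoter or distal peak. They held 63 of 72302 wild-type peaks and 124 of 106319 knockout peaks.

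Each genotype had 1 ATAC and 1 RNA library made from the same nuclei of frozen liver. The labels give bile duct ligation as the treatment of every library, so neither genotype has an unoperated control. They do not describe the knockout allele, the strain, the sex or age of the animals, the time after ligation, or how many animals were used per library. With 1 library per genotype there was no replicate, no test between genotypes and no p-value, and every difference below is a difference between these libraries. ATAC marks DNA that a transposase can cut, and the peak lists used here pool all nuclei of a library. From these lists, fewer cells of a type and less open chromatin per cell therefore cannot be told apart.

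Zonation means that hepatocytes near the central vein and near the portal vein run different programmes. As background, endothelial cells of the central vein secrete the Wnt proteins encoded by Wnt2 and Wnt9b and the R-spondin encoded by Rspo3. R-spondins bind the receptors encoded by Lgr4 and Lgr5, which removes the ubiquitin ligases encoded by Znrf3 and Rnf43 from the cell surface and so leaves more Wnt receptors in place. The signal frees beta-catenin to act with the DNA-binding factor encoded by Tcf7l2, and Axin2, Lgr5 and Tbx3 are classical targets in pericentral hepatocytes.

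The libraries differed in more than genotype. The 5828 wild-type nuclei held 40858512 ATAC fragments and the 5339 knockout nuclei 83996145, which is 2.06 times as many, and the knockout list had 1.47 times as many peaks. Of the wild-type fragments 33.7% lay in peaks and of the knockout fragments 46.0%, each counted in its own list. RNA went the other way, with a median of 3769 UMIs (captured RNA molecules) per wild-type and 1232 per knockout nucleus. Peaks were called separately in each library and carry no height. Markers also moved with genotype. The 20 hepatocyte markers held 28 wild-type and 136 knockout peaks, and 9 of them, Alb among them, had no wild-type peak. Of these 9, Tf had no peak under that symbol in either library, so its absence is not a difference. Among all 25458 genes with a peak, 3316 had none in the wild-type library. The 20 endothelial markers held 156 and 275 peaks, and all 20 had a peak in both libraries. The 15 macrophage markers held 102 and 90. Peaks over Mertk do not check the genotype, because open chromatin can persist at a disrupted allele. The part of depth, library quality or cell mixture in the results below was not tested.

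Where RefSeq gives the sequence before a gene start, it shows what kind of promoter the peaks cover. RefSeq promoter windows (GRCm38.p6, from 250 bases before the start to 50 after it) existed for 6 of the 10 genes, in 8 windows. The 4 sequences below are the 250 bases before the start, 5′ to 3′ on the strand of the gene, and capitals mark CpG, the dinucleotide that is dense in broadly active promoters. Both windows that a peak touched in the knockout library alone are shown, beside a pair, given as an example, that peaks covered in both libraries.
Axin2 (chr11:108920099-108920348, plus strand, covered in both libraries): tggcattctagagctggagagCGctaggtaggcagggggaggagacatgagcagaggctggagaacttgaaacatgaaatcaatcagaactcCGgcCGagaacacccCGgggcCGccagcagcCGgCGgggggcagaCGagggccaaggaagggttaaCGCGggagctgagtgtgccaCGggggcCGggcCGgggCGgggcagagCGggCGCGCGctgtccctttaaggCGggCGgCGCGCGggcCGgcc
Tcf7l2, upstream start (chr19:55741560-55741809, plus strand, covered in both libraries): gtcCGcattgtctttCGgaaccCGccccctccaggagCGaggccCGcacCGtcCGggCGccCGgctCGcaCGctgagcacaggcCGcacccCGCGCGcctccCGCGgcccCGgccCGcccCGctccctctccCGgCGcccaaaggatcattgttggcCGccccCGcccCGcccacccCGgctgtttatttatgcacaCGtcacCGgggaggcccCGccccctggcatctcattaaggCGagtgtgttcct
Tcf7l2, internal start (chr19:55895071-55895320, plus strand, covered in the knockout library alone): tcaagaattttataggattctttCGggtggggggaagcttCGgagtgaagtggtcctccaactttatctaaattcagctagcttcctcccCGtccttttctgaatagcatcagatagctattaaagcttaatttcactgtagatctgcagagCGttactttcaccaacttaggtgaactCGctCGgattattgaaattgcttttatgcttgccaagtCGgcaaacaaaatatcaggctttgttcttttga
Wnt2 (chr6:18030446-18030695, minus strand, covered in the knockout library alone): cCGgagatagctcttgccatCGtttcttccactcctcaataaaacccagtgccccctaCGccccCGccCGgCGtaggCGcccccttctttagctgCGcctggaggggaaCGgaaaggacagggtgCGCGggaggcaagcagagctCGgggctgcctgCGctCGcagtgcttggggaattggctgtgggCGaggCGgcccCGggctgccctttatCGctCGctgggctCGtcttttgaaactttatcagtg

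The Axin2 sequence holds 24 CpG and that of the upstream Tcf7l2 start 30, and peaks of both libraries covered all 250 bases of each. The Wnt2 sequence is of the same CpG-rich kind, with 20 CpG, yet only a knockout peak covered it. The internal Tcf7l2 start is different, with 7 CpG, and the knockout peak there covered the 166 bases nearest the start. In the full 300-base windows, Wnt2 had 27 CpG, more than most (percentile 85.2 of 32851 windows). Of the 5097 windows with at least 27 CpG, 86.0% were touched by peaks of both libraries, 5.85% by a knockout peak alone and 0.785% by a wild-type peak alone. Over all windows these shares were 40.2%, 8.33% and 1.73%.

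The same windows were searched on both strands for letters known to be bound by TCF/LEF factors of the Wnt pathway, by GATA factors (of endothelial cells, among others) and by the hepatocyte factor HNF4A. TCF/LEF letters (CTTTGAT or CTTTGAA) were in 8.65% of all windows and in none of the 8 windows of these genes. GATA letters (AGATAA) were in 11.2% of all windows and in 1 of the 8, that of the internal Tcf7l2 start. There they lie on the reverse strand 187 bases before the start, at chr19 position 55895134, outside the knockout peak, which begins at 55895155. HNF4A-like letters (CAAAGTCCA) were in 0.475% of all windows and in none of the 8. Letters in a window are not evidence that a factor binds there, and their absence says nothing about the rest of the locus.

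In total, 9 of the 10 genes had more peaks in the knockout library, 1 had as many in both, and 0 had fewer. More knockout than wild-type peaks were also found for 60.3% of all genes with a peak. A further count took only genes whose summed peak length averaged at least 2 kb over both libraries. Among these, 7 of the 8 Wnt genes and 68.9% of all genes had more knockout than wild-type peaks. Summed over the 10 genes, wild-type peaks covered 54.3 kb and knockout peaks 105.3 kb, a ratio of 1.94, against 1.48 for all peaks. Tcf7l2 alone gave 50.8% of the wild-type and 44.4% of the knockout peaks.

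**Figure D1:**
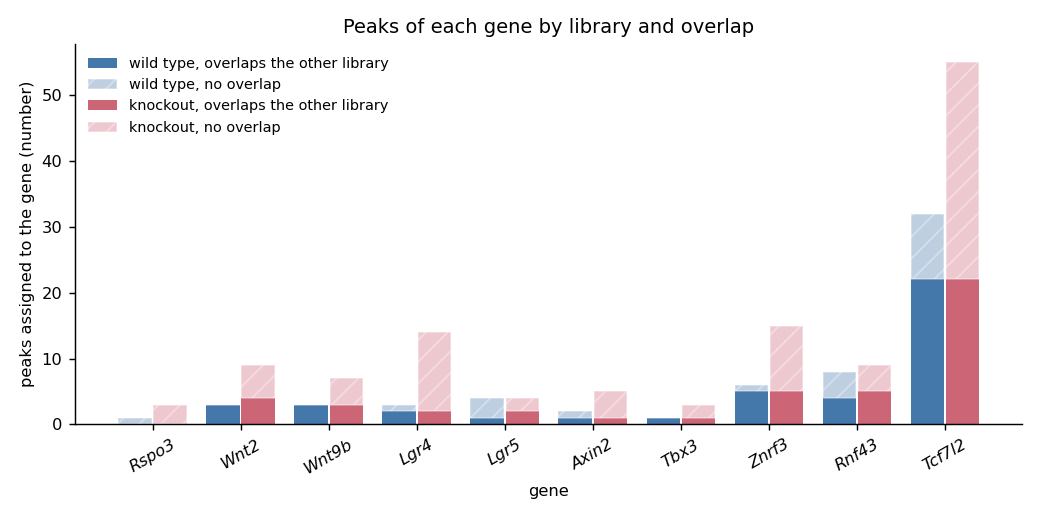
Number of peaks (vertical axis) assigned to each gene (horizontal axis) in the wild-type and knockout libraries, 1 library each. Solid parts are peaks that overlap the other list by 1 bp or more and hatched parts those that do not; Lgr4 had 3 and 14 peaks with 2 overlapping in each, and Lgr5 had 4 in both.

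The ligand genes come first. Rspo3, on the minus strand of chromosome 10 (29453106 to 29535867), had the fewest peaks and shared none of them. The wild-type library had 1 peak, at 29532850 to 29533644, inside the gene and centred 2.62 kb after the start. The knockout library had 3: a promoter peak over the start (29535490 to 29536343), a peak 78.1 kb into the gene (29457302 to 29458235) and a peak 18.7 kb before it (29554128 to 29555031). The wild-type peak lay 1.84 kb from the knockout promoter peak. Of the 10 genes, Rspo3 was the only one whose promoter peak was found in the knockout list alone, while 9 had one in both and 0 in the wild-type list alone. Among 17563 genes with a promoter peak, 81.4% had it in both lists, 15.4% in that of the knockout alone and 3.17% in that of the wild type alone. All Rspo3 peaks were also assigned to the predicted gene Gm48159, so none belonged to Rspo3 by annotation alone.

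Wnt2, on the minus strand of chromosome 6 (17985474 to 18032772), had 3 wild-type peaks of 2.60 kb in all and 9 knockout peaks of 7.87 kb. Every wild-type peak was found again in the knockout library. They were a promoter peak 1.34 kb before the start (18031335 to 18032245), a peak 38.7 kb into the gene (17991303 to 17992127) and a peak 87.9 kb after the start, past the end of the gene (17942065 to 17942930). The knockout library added a peak directly over the start (18029970 to 18030725), the one that covers the Wnt2 sequence above. It also added peaks 22.9 and 27.2 kb into the gene, and 2 more past its end that did not overlap a wild-type peak. A knockout peak 97.5 kb after the start overlapped a wild-type peak that was not assigned to Wnt2. In the wild-type library the promoter call of Wnt2 rested on the peak before this start, and the start at 18030445 had no peak. That peak is upstream only of the start with a RefSeq promoter window; it lies inside the RefSeq gene span, which reaches 18032772.

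Wnt9b, on the minus strand of chromosome 11 (103727362 to 103775272), repeated this arrangement in part. Its 3 wild-type peaks (2.64 kb) all had a counterpart among the 7 knockout peaks (5.73 kb). A peak over the start was present in the wild-type (103749447 to 103750324) and in the knockout library (103749345 to 103750132). The knockout library alone had another promoter peak right beside it (103750470 to 103751303) and a distal peak 2.20 kb before the start. The other peaks found in both lay 9.16 kb before the start and 20.4 kb after it in the wild-type library. The start used, 103749821, lies within the RefSeq gene span, so the peaks before it are still inside that span. Of the bases covered in either library, 38.5% were covered in both, the highest share among the 10 genes.

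**Figure D2:**
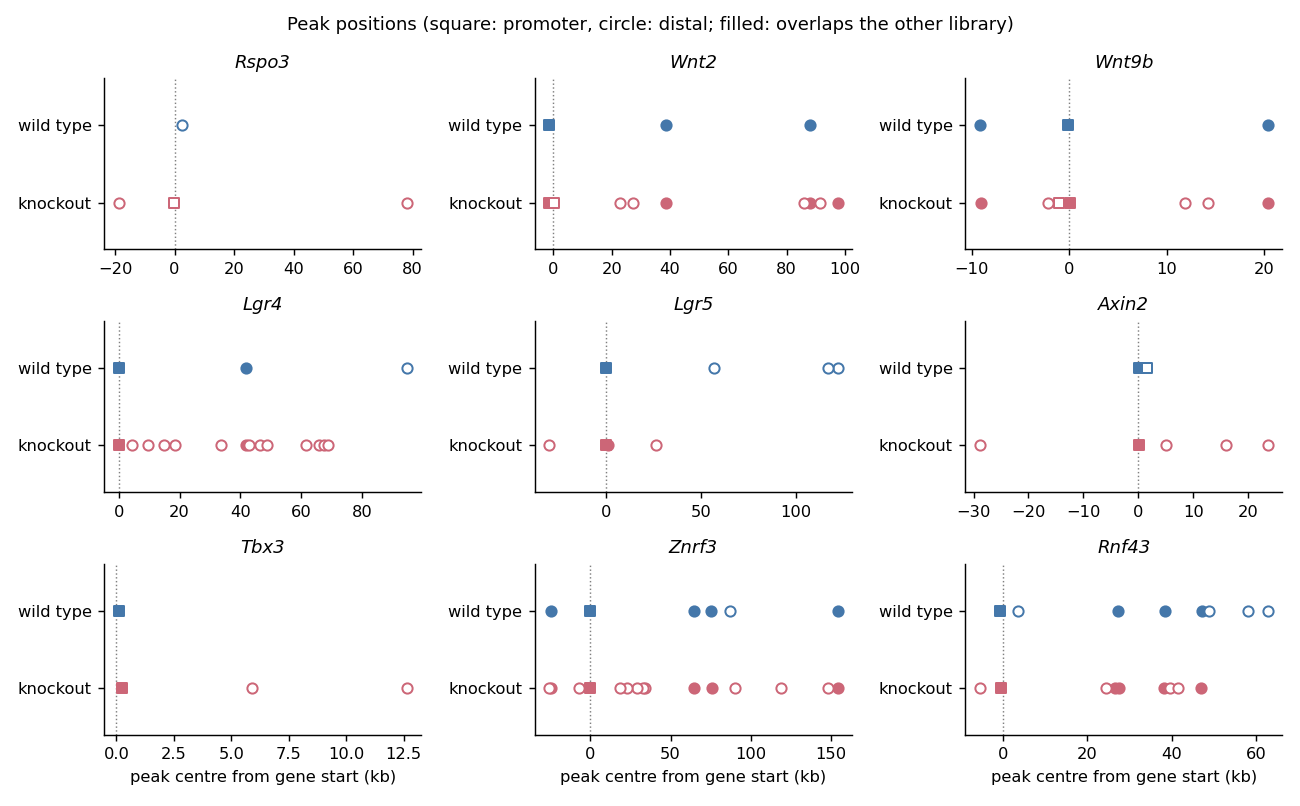
Peak centres of 9 genes in the wild-type (upper row of each panel) and knockout library (lower row). The horizontal axis is kb from the gene start used, positive in the direction of transcription, which for Wnt2 reaches past the gene end. Squares are promoter peaks, circles distal peaks, and filled symbols overlap the other library. The knockout row of Lgr4 has 13 distal peaks between 4.25 and 68.8 kb, against 2 in the wild-type row.

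Of the receptor genes, Lgr4 differed most and Lgr5 hardly in number. Lgr4, on the plus strand of chromosome 2 (109917647 to 110014257), had 3 wild-type peaks of 2.16 kb and 14 knockout peaks of 12.0 kb. The promoter peak was in both libraries, at 109917293 to 109918166 in the wild-type and 109917262 to 109918102 in the knockout library. A peak 41.7 kb into the gene was also in both. The other 12 knockout peaks had no wild-type counterpart, and all 14 knockout peaks lay inside the gene. Of these 14, 10 were assigned to no other gene, and the 4 farthest from the start were also assigned to the neighbour Ccdc34. The third wild-type peak lay 94.8 kb into the gene, and the nearest knockout peak to it was 4.75 kb away.

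Lgr5, on the minus strand of chromosome 10 (115450314 to 115587780), had 4 peaks in each library, with a summed length of 3.55 kb (wild type) and 3.09 kb (knockout). The number was equal but the places were not. Only 1 of the wild-type peaks, against 3 of the knockout peaks, was assigned to no other gene. The promoter peak was found in both, at 115587089 to 115588017 in the wild-type and 115587281 to 115587871 in the knockout library. A knockout distal peak next to it touched the wild-type promoter peak by 14 bp. The remaining wild-type peaks lay 56.9, 116.9 and 121.8 kb into the gene, the remaining knockout peaks 26.4 kb into it and 29.8 kb before it. No pair of these overlapped, and 10.0% of the bases covered in either library were covered in both, the lowest share of the 10 genes after Rspo3 with 0.

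The ubiquitin ligase genes that the LGR receptors act on differed from each other in peak number. Znrf3, on the minus strand of chromosome 11 (5276329 to 5444847), had 6 wild-type peaks of 5.27 kb and 15 knockout peaks of 12.6 kb. Its promoter peak (wild type 5444577 to 5445420) was in both libraries, as were 4 of the 5 wild-type distal peaks. The 10 peaks found in the knockout library alone were spread from 25.5 kb before the start to 147.7 kb into the gene. Rnf43, on the plus strand of the same chromosome (87663087 to 87735539), had 8 wild-type peaks of 7.13 kb and 9 knockout peaks of 7.67 kb. Its promoter peak was in both libraries and ended before the annotated start in both, at 87663001 and 87663047. Of its peaks, 4 of 8 in the wild-type library and 4 of 9 in the knockout library had no counterpart. The unmatched wild-type peaks included 3 that lay 48.7, 57.9 and 62.7 kb into the gene, farther in than any knockout peak.

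Axin2 and Tbx3 stand for the target genes. Axin2 encodes a scaffold of the complex that degrades beta-catenin, so that the pathway raises its own inhibitor. On the plus strand of chromosome 11 (108917828 to 108950783), it had 2 wild-type peaks of 1.63 kb, both called promoter peaks, and 5 knockout peaks of 4.38 kb. The peak over the start was in both libraries, at 108920037 to 108920879 and 108920070 to 108920932. The other wild-type promoter peak (108921526 to 108922314, centred 1.57 kb after that start) was in the wild-type library alone, 0.593 kb from the nearest knockout peak. It was the single promoter peak of these genes that the knockout library lacked. In turn, 4 distal peaks were found in the knockout library alone, 28.9 kb before the start and 5.09, 16.0 and 23.6 kb after it. Axin2 had no distal peak in the wild-type library.

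Tbx3, which encodes a T-box transcription factor, lies on the plus strand of chromosome 5 (119670534 to 119684724). The wild-type library had the promoter peak alone (119670185 to 119671090). The knockout library had it too (119670299 to 119671210), with 2 distal peaks 5.89 and 12.6 kb into the gene. Summed length was 0.906 and 2.73 kb.

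Tcf7l2, on the plus strand of chromosome 19 (55741797 to 55933659), had by far the most peaks, 32 in the wild-type library (27.6 kb) and 55 in the knockout library (46.5 kb). The peaks before the gene and those inside it did not differ alike between the libraries. Before the gene there were 22 wild-type and 27 knockout peaks, and 15 of each overlapped the other library. Inside the gene there were 10 and 28, of which 7 of each overlapped, so 21 knockout peaks and 3 wild-type peaks inside the gene had no counterpart. Over all genes matched to RefSeq, peaks inside the gene were 1.45 times and those outside 1.50 times as many in the knockout as in the wild-type library. A cluster more than 150 kb before the start had 12 wild-type and 14 knockout peaks, 9 of each overlapping, and all of these peaks were also assigned to the neighbour Vti1a. The promoter peak at the upstream start was in both libraries (55741184 to 55742026 in the wild-type, 55741223 to 55742092 in the knockout library). The promoter peak at the internal start (55895155 to 55896020) was in the knockout library alone, 153.8 kb into the gene.

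**Figure D3:**
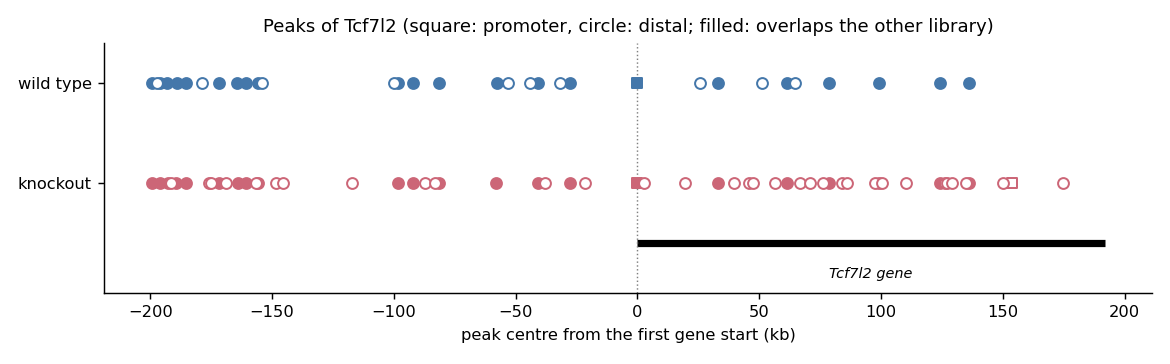
Peak centres of Tcf7l2 (horizontal axis, kb from the upstream start) in the wild-type (upper) and knockout library (lower), with the RefSeq gene as a black bar; filled symbols overlap the other library. Before the gene the rows hold 22 and 27 peaks, inside it 10 and 28.

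Positions were compared over the 10 genes together by asking whether a peak overlapped any peak of the other list by 1 bp or more. Promoter peaks were mostly common to both. Of 10 wild-type promoter peaks 9 overlapped (90.0%, exact Clopper-Pearson 95% interval 55.5% to 99.7%), against 93.5% of all wild-type promoter peaks. Of 13 knockout promoter peaks 9 did (69.2%, interval 38.6% to 90.9%), against 78.9%. The 4 without a counterpart were those of Rspo3, the Wnt2 start, the Wnt9b flank and the internal Tcf7l2 start. The intervals cover counting error alone, and peaks of a gene share a locus.

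Distal peaks were less often common. Of 53 wild-type distal peaks 33 overlapped (62.3%, interval 47.9% to 75.2%), against 67.1% of all wild-type distal peaks, which lies within the interval. Of 111 knockout distal peaks 36 did (32.4%, interval 23.9% to 42.0%), against 43.7% of all, which lies just above the interval. The overlapping numbers, 33 and 36, were close, so the lower knockout share restates the 2.09-fold number of knockout distal peaks. Of the 111, 53 belonged to Tcf7l2. The interval treats peaks as independent, so it does not set these genes apart from all. Without Tcf7l2 the knockout share was 25.9% of 58 (interval 15.3% to 39.0%). Where peaks did overlap, their centres were close, with a median shift of 47.5 bp in the knockout list against a median peak width of 870.5 bp. Unmatched knockout peaks lay a median of 4.96 kb from the nearest wild-type peak, and unmatched wild-type peaks 2.94 kb from the nearest knockout peak.

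**Figure D4:**
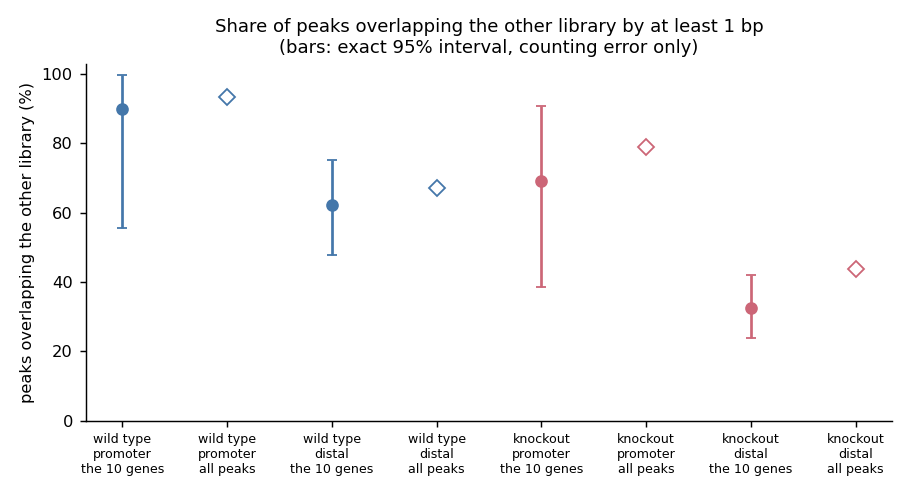
Share of peaks that overlap the other library by at least 1 bp (vertical axis, percent) for the 10 genes (filled circles) and for all peaks of the same type (open diamonds), by library and peak type; bars are exact 95% intervals. The knockout distal peaks of the 10 genes are at 32.4% and all knockout distal peaks at 43.7%.

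Summed length was put on a common scale as log2 of knockout kb over wild-type kb, with 1 kb added to both, minus 0.39, the median over the 14692 genes with a mean of at least 2 kb. On this centred scale 0 is the median gene, and values at or beyond 1 or -1 were called higher or lower by size alone. A gene with peaks in 1 library alone meets the 2 kb minimum only through that library and then passes the limit by construction. Rspo3 and Tbx3 fell short of 2 kb and got no call. Of the other 8 genes, 1 was higher, Lgr4 at 1.65 (percentile 95.6 of all genes), and 0 were lower. Over all genes 10.3% were higher and 4.08% lower, so 1 of 8 is near the background. Wnt2 stood just inside the limit at 0.91 (percentile 88.0). Znrf3 followed at 0.73, Axin2 at 0.64, Wnt9b at 0.49 and Tcf7l2 at 0.34. Rnf43 at -0.30 and Lgr5 at -0.54 lay below the median gene. For Lgr5 the direction rests on peaks also assigned to other genes, since 1 wild-type and 3 knockout peaks were assigned to it alone. The median of the 8 was 0.57, against 0 over all genes by construction.

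The call depended on centring. Without it 4 of the 8 genes were higher, Lgr4 (2.04), Wnt2 (1.30), Znrf3 (1.12) and Axin2 (1.03), and 0 were lower, while 19.6% of all genes were higher and 1.34% lower. Of these 4, Axin2 met the length minimum only through its knockout peaks. The value of Rnf43 turned to 0.09 without centring, so its direction rests on that step, and that of Lgr5 became -0.15.

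The rest of the pathway was described with the same size rule. Wnt inhibitors held 42 wild-type and 89 knockout peaks, and of 11 measured genes 4 were higher and 1 lower, with a median of 0.78, against 10.3% and 4.08% of all genes. Sfrp1, a secreted Wnt antagonist, had 0 and 7 peaks, and Frzb, of the same family, 1 and 7. With 0 wild-type peaks, Sfrp1 was higher by construction. Dkk1, which blocks the LRP co-receptors, went the other way with 4 and 2 peaks and a ratio of -1.26. Of the 11 measured inhibitor genes 8 lay above the median gene, so Dkk1 was not the only one below it. Of the 14 inhibitor genes with a promoter peak, 8 had it in the knockout list only, Dkk1 among them, and 0 in the wild-type list only, against 15.4% and 3.17% of all genes with one.

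The other Wnt ligand and secretion genes had a median of 0.03, close to the median gene. Of 13 measured, 2 were higher and 0 lower, against 10.3% and 4.08% of all genes, so 2 of 13 was near the background. The 2 were Wnt4 with 2 and 9 peaks (ratio 1.30) and Wnt7a with 1 and 6 (1.27), while Wnt6 had 4 and 3 (-0.69). Receptors and other R-spondin genes had a median of 0.41, with 2 of 13 higher and 0 lower, again near the background. The 2 were the co-receptor genes Ror1, with 8 and 25 peaks (1.17), and Ror2, with 2 and 9 (1.15). Lrp5, a co-receptor of the Frizzled proteins, had 8 and 21 (0.91). The beta-catenin machinery had a median of -0.12, which without centring was 0.27, and 0 of 19 genes passed the rule in either direction. Its widest values were those of Tle3, a co-repressor gene (3 and 10 peaks, 0.97), Apc, a scaffold of the degradation complex (16 and 11, -0.83), and Btrc (6 and 16, 0.82).

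Among pericentral hepatocyte genes 14 of 16 had more knockout than wild-type peaks, and among periportal ones 13 of 16, against 60.3% of all genes with a peak. By the size rule, which 10.3% of all genes passed as higher and 4.08% as lower, 6 of 14 measured pericentral genes were higher and 0 lower (median 0.81), with 38 wild-type and 116 knockout peaks. Aldh1a1 had 0 and 20, Slc22a3, an organic cation transporter gene, 0 and 8, and Gulo 0 and 6. Slc1a2, a glutamate transporter gene, had 16 and 15, and Rhbg had 4 in each. Of 13 measured periportal genes 6 were higher and 0 lower (median 0.61), with 54 and 105 peaks. Cps1, of the urea cycle, had 0 and 12, Hsd17b13 0 and 9, and Cyp2f2 0 and 5. With 0 wild-type peaks, Cps1, Hsd17b13, Cyp2f2, Aldh1a1, Slc22a3, Gulo and Cyp2e1 were higher by construction, and they are part of these counts. Ass1, of the same cycle as Cps1, had 7 and 5 peaks, Ctsc 25 and 21, and Asl 2 in each. Slc1a2, Rhbg, Ass1, Ctsc and Asl were chosen after their values were seen. The 20 hepatocyte markers had a median of 1.20, with 9 of 14 measured higher and 0 lower. Some of these 9, Alb among them, also had 0 wild-type peaks and were higher by construction. Endothelial markers had a median of 0.41, with 1 of 18 higher and 0 lower. Markers of stellate cells had 1.51, of bile duct cells 0.93 and of macrophages -0.49, with 6 of 8, 4 of 8 and 0 of 10 higher, and 3 of the macrophage markers were lower. The median of the Wnt genes, 0.57, lay between those of endothelial and hepatocyte markers, and the differences between lists were not tested.

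**Figure D5:**
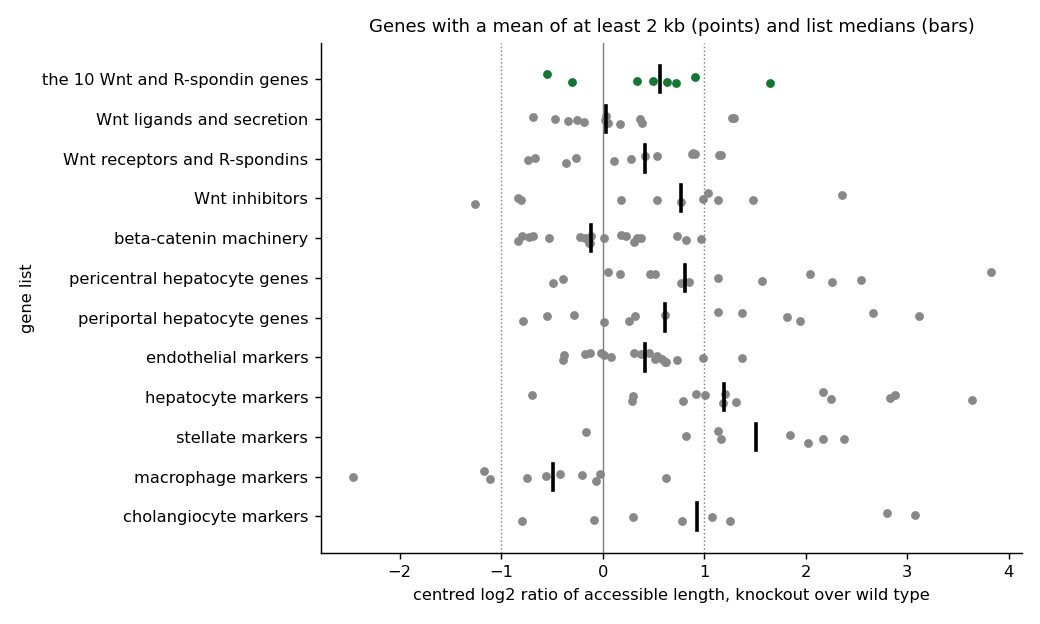
Centred log2 ratio of accessible length, knockout over wild type (horizontal axis), for genes with a mean of at least 2 kb in each list (vertical axis); points are genes, black bars list medians, dotted lines the size limits at 1 and -1. The Wnt and R-spondin genes run from -0.54 (Lgr5) to 1.65 (Lgr4).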

How the data were processed

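Open chromatin and RNA were read from the same nuclei, with 1 library of each per genotype. Per the file headers, each library went through its own run of cellranger-arc 2.0.2 on mm10. Peak thresholds, not given in the sources used here, set which regions are listed. The authors' deposited peak lists and annotation give positions in bp, with no score. Fragment counts come from the authors' deposited barcode tables, which hold unnormalised whole numbers, and served for depth alone. Counts per gene and nucleus were not used here, so the cells that carry a peak were not resolved, and expression and doublets were not examined.

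Only peaks of the 19 autosomes and of X and Y entered (43 wild-type and 44 knockout peaks lay elsewhere). A peak with a promoter line for any gene counted as promoter in the totals over all peaks. Of the distal peaks of the 10 genes, 2 in each library were promoter peaks of another gene. Gene spans and promoter windows are those of RefSeq (GRCm38.p6, the assembly behind mm10), matched by symbol. The 10 genes were found in full. Starts come from the promoter windows (for Tcf7l2 and Rnf43, the outermost). For the 4 genes without a window, the start is the gene end that a promoter peak covers. Distances are from that start to a peak's centre. No genome sequence was used here, so motifs were searched in promoter windows and not in peaks, a choice made after seeing the data.

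The genes and the 11 comparison lists were chosen with earlier results of these data known. All 10 genes are named. From the other pathway and zonation lists the 3 with the largest absolute ratio are named, and cell type markers are given as counts. Alb and a few zonation genes were named after its values were seen. The ratio and overlap code was tested on simulated data. Calculations ran in Python 3.11.15 (pandas 2.3.3, numpy 2.4.6, scipy 1.17.1), plots in matplotlib 3.10.9.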

Additional observations from a re-analysis of the deposited data

How the results depend on the processing

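No paired analysis was possible because a single library stood for each genotype, and no replicate could be left out. Counting only peaks assigned to no other gene left 32 of 63 wild-type and 70 of 124 knockout peaks. Without Tcf7l2, an alternative chosen after seeing the data, there were 31 and 69. Peaks that touched the RefSeq genes or the 10 kb on either side numbered 43 and 99. With no centring, 4 Wnt genes passed the size rule as higher, against 1 with it. It was also 1 with pseudocounts of 0.5 or 2 kb, scaling by total peak length or no length minimum. Distal peaks alone, peak numbers in place of length, and peaks assigned to no other gene gave 1 as well. The genes measured were not the same throughout. They numbered 8, but 10 with no length minimum and 7 with distal peaks alone, where Axin2 dropped out. With peaks assigned to no other gene they were 7, as Lgr5 dropped out. In these settings, apart from no centring, 7.13% to 13.6% of all genes were higher. Promoter peaks alone left 0 of the 10 genes above the length minimum, so that alternative gave no value. The share of overlapping peaks stayed between 64.5% and 67.7% in the wild-type library and between 33.3% and 36.6% in the knockout library. These ranges cover overlaps of at least 200 bp or 50% of both peaks, peaks of at least 500 bp and the list without Tcf7l2. The planned motif search in peaks and in 300 bp around their centres was not run, since it needs a genome sequence. The wild-type list comes from fewer fragments, and no depth-matched peak list was used here: a region with no peak in a library is not shown to be closed.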

Other observations

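Counting every peak within 100 kb of a gene start, whatever gene it was assigned to, gave more knockout peaks around each of the 10 genes. This count was not made over all genes, so it is not shown to be particular to these. By assigned peaks, 60.3% of all genes with a peak had more in the knockout list. Axin2 had 4 wild-type and 14 knockout peaks in that range, and Tbx3 4 and 11. The 4 wild-type peaks near Tbx3 all overlapped a knockout peak, as did the 5 near Wnt2, where the knockout library had 11. Wnt9b had 8 and 17, Lgr4 6 and 16, Lgr5 2 and 4, Rspo3 1 and 3, Znrf3 17 and 25 and Tcf7l2 18 and 27. Rnf43 had nearly equal numbers, 23 and 24. Of the 10 ratios, those of Rnf43 (1.04) and Znrf3 (1.47) were at or under the ratio of all peaks (1.47), and that of Tcf7l2 was just above it at 1.50. Around Rspo3 the 100 kb on either side held no peaks but those assigned to it. Glul, the glutamine synthetase gene, and Cyp2e1, a cytochrome P450 gene, both of pericentral hepatocytes, were chosen after their values were seen. Glul had 3 wild-type and 5 knockout peaks with a ratio of 0.05, at the median gene, while Cyp2e1 had 0 and 5.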
